A study of Mus musculus with 23 samples.

Results

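The first day after serum withdrawal was followed in control cells of C2C12, a mouse skeletal muscle myoblast line. The members were the 5 control libraries labelled growth medium or day 1, of 23 libraries in the whole series. They were picked out by their labels. Growth medium held 20% FBS (fetal bovine serum) and gave 2 libraries. Differentiation medium held 2% horse serum and gave 3 libraries after 1 day. Control cells carry the genotype label WT. The labels do not say what the control cells were treated with, nor whether either genotype was a single clone. The other groups used were the 6 libraries labelled Runx1KO (here labelled KO) in growth medium and on day 1, and the 3 control libraries of day 3. Poly(A) RNA was sequenced in all of them. No label says that replicates were separate cultures, so p-values measure the spread between these libraries, which may be technical.

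Myoblasts divide while serum supplies mitogens, and lowering serum lets them leave the cell cycle, express muscle proteins and fuse into myotubes. The transcription factors Myod1 and Myf5 mark the committed myoblast, and Myog (myogenin) opens the differentiation programme. Id proteins hold Myod1 back by binding its E-protein partners, and serum keeps Id genes active. Exit from the cycle passes through Cdk inhibitors and the Rb family, which silence genes under E2f and MuvB control.

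Depth was even, with 22197606 to 22913075 estimated counts in each of the 5 libraries. Levels are given as CPM, counts divided by the scaled library size and multiplied by 1e6, and 3 counts, about 0.135 CPM in growth medium and 0.128 CPM on day 1, were taken as the floor of detection. Myoblast markers were present in every library, and their summed TPM (the authors' length-corrected share of transcripts) was 1607 and 1569 in growth medium and 2559 to 2702 on day 1. The summed TPM of 8 myotube markers was 4.94 and 3.87 in growth medium and 83.5, 64.2 and 116 on day 1. For other cell types, markers at 0 counts in all 5 libraries numbered 5 of 8 for adipocytes (Adipoq and Plin1 among them), 3 of 8 each for macrophages (Ptprc, Adgre1), endothelium (Cldn5, Tie1) and neurons and glia (Sox10), 3 of 6 for tenocytes, 2 of 8 for chondrocytes and 1 of 8 for osteoblasts. Their summed TPM was 25.6 to 28.9 for adipocytes. For macrophages it was 3.20 and 3.30 in growth medium and 2.43 to 2.87 on day 1, and for endothelium 0.17 and 0.20, then 0.40 to 0.44. For neurons and glia it was 263 and 261, then 208 to 230. For chondrocytes it was 60.6 and 55.7 in growth medium and 72.5 to 78.3 on day 1, and for osteoblasts 1982 and 1849, then 2022 to 2132. Runx1, the targeted gene, was no lower where the label is KO, at 119.8 ± 2.15 CPM in growth medium and 131 ± 11.4 on day 1 (SD, n = 3 each). In the control libraries it stood at 84.0 and 83.9 CPM in growth medium and at 104, 108 and 95.6 CPM on day 1. Its first-day log2 fold change (log2FC) was 0.28 (edgeR quasi-likelihood test, adjusted p = 0.0133), and the call was lost without growth medium replicate 2 (adjusted p = 0.0745). Day 1 replicate 2 of the libraries labelled KO stood apart, with a chi-square per degree of freedom of 62.1 and 61.7 against its replicates, where control replicates differed by 4.88 to 7.36. It enters the shared estimate of spread in every test of the control libraries.

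Many genes changed on the first day after serum withdrawal. Of 14187 genes tested, 7760 (54.7%) differed between day 1 and growth medium. A gene was called when its Benjamini-Hochberg adjusted p in edgeR's quasi-likelihood test was under 0.05. The calls numbered 8523 without day 1 replicate 2 of the libraries labelled KO, and 6025 without growth medium replicate 2, fewer than the genes without a call. Of the 7760, 3848 (27.1%) rose and 3912 (27.6%) fell. On the authors' TPM scale the share of higher genes among the calls was larger, at 60.7% with limma on log2(TPM + 1) and 61.6% on log2(TPM + 0.1), against 49.6% here. Most changes were small: the median size of a called change was 0.71 on the log2 scale, with quartiles at 0.45 and 1.17. Large changes leaned towards gains. At least 2-fold, 1440 genes (10.2%) rose and 1043 (7.35%) fell. At least 4-fold, 508 (3.58%) rose and 146 (1.03%) fell. At least 8-fold, 222 (1.56%) rose and 51 (0.359%) fell. Complete switches were rare among genes reaching 5 CPM. Myog and Pi16 had at most 3 counts in each growth medium library and at least 5 CPM in each day 1 library, and no gene did the reverse. The levels of the 2 groups did not overlap for 74.5% of tested genes. Bulk RNA cannot tell a change in the number of cells of a type from a change in RNA per cell.

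**Figure D1:**
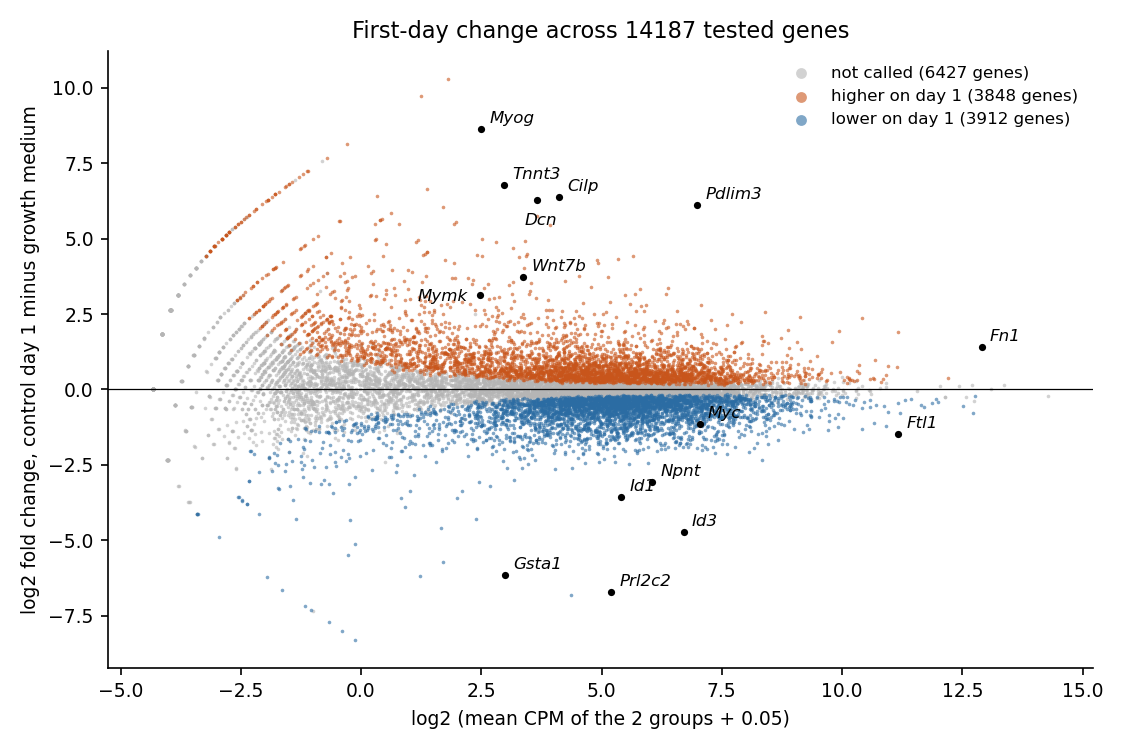
Log2 fold change between control day 1 and growth medium against the log2 mean level (CPM + 0.05) for 14187 genes, each point 1 gene, coloured by call. The largest gains include Myog and Tnnt3 and the largest losses include Prl2c2, Gsta1 and Id3, and arcs of points at the left are genes with few or no counts in a group.

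Myog itself was at the limit of detection before withdrawal. It had 0 and 1 counts in the growth medium libraries and 250, 119 and 421 counts on day 1, or 10.6, 5.05 and 18.0 CPM. Every day 1 library was far above growth medium, but the day 1 libraries differed among themselves by over 3-fold. The ratio of summed CPM was 497, with an exact 95% counting interval of 88.9 to 19638 (counting error only), at an adjusted p of 5.87e-08 (edgeR). The fitted log2FC of 8.64 moved to 7.80 without growth medium replicate 1. Without replicate 2 no growth medium count is left, so the fitted value then depends on the prior count. The rise had only begun, since the mean on day 3 was 168 CPM. The partners of Myog moved less and not all one way. Myod1 fell from 404 and 419 CPM to 252, 224 and 281 CPM (log2FC -0.71, SE 0.16, adjusted p = 0.000723). Myf5 was 35.1 CPM in both growth medium libraries and 51.3, 53.8 and 51.5 CPM on day 1 (log2FC 0.57, SE 0.08). Pax7, the satellite cell factor, rose as well, from 50.1 and 43.0 CPM to between 69.7 and 79.8 CPM (log2FC 0.68, adjusted p = 9.27e-05). Of 22 myogenic regulators tested, 15 rose, 1 fell (Myod1) and 6 had no call. Their median log2FC was 0.60, against 0.015 over all tested genes. Pitx3 rose from 0.97 and 2.27 CPM to between 5.60 and 7.47 CPM (log2FC 1.99, and 2.72 without growth medium replicate 2). Mef2c, a cofactor of Myog in later muscle, had at most 1 count in each of the 5 libraries.

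The windows before the start of muscle genes are shown because the E-box CANNTG is the motif that myogenic factors bind. Each window is the 250 bases before a gene's start in RefSeq (GRCm38.p6), printed 5′ to 3′ on the gene's own strand, with the marked motif in capitals. In Myog (chr1:134289754-134290003, plus strand) the capitals mark 2 CANNTG sites, with first bases 138 and 12 bases before the start. In Klhl41 (chr2:69669870-69670119, plus strand) and Atp2a1 (chr7:126463074-126463323, minus strand) they mark CAGCTG, the E-box form tied to Myod1 and Myog. The Myog window holds no CAGCTG, and the share of all windows with the looser CANNTG was not counted.
Myog: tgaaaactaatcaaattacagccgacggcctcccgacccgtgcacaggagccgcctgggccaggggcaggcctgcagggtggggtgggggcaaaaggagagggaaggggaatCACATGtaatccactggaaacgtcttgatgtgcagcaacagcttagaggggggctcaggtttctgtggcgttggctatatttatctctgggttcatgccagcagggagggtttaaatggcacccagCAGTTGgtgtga
Klhl41: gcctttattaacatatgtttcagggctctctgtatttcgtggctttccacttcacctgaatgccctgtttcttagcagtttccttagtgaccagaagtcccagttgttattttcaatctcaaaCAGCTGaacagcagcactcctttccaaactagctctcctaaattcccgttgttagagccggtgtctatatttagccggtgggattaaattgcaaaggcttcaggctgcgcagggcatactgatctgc
Atp2a1: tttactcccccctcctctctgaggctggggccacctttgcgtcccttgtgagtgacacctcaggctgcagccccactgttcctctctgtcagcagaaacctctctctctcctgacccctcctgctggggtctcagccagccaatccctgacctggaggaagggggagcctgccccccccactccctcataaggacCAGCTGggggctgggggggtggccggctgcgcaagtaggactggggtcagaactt
Searched on both strands over 300 bases (250 before and 50 after the start, 1 window a gene), CAGCTG was in 16.1% of all 27025 windows and in 15.1% of those of tested genes. It was in 22.5% of the 985 windows of genes that rose at least 2-fold and in 12.7% of the 798 of genes that fell at least 2-fold. In the sarcomere list 41.2% of 34 windows held it, and in the excitation list 56.5% of 23. The shares were lower for myogenic regulators, at 26.7% of 15, and for the fusion list, at 21.4% of 14. A match is a description of the letters and not evidence of binding.

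Contractile genes came on early, many from near silence. Of 40 sarcomere genes tested, 24 rose, 2 fell and 14 had no call. Their median log2FC was 2.12, or 1.25 with genes at or under the floor set at their bound, since 13 of them had at most 3 counts in each growth medium library. Tnnt3, the fast troponin T, had 2 and 4 counts in growth medium and 345, 292 and 448 on day 1 (log2FC 6.77, SE 0.48, adjusted p = 6.14e-11, with a log2FC of 7.36 without growth medium replicate 2). Tnnt1, the slow troponin T, went from 0.97 and 0.37 CPM to 25.8, 25.9 and 37.2 CPM (log2FC 5.44, adjusted p = 5.92e-12, with a log2FC of 6.34 without growth medium replicate 1). The embryonic myosin heavy chain Myh3 had 2 and 0 counts, then 80, 46 and 81, a ratio of 65.1 with a counting interval of 17.8 to 541 (fitted log2FC 5.86, and 9.08 and 4.97 without growth medium replicate 1 or 2). Without replicate 1 no growth medium count is left, so 9.08 depends on the prior count. The day 1 level of Myh3, 1.95 to 3.46 CPM, was small beside the day 3 mean of 265 CPM. Both sarcomere genes that fell are made outside the mature muscle fibre too. Tnnt2, the cardiac troponin T of embryonic muscle, fell from 61.0 and 58.9 CPM to between 22.8 and 30.8 CPM (log2FC -1.11). Tpm3 fell from 696 and 711 CPM to between 403 and 414 CPM (log2FC -0.78).

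Genes of excitation, its coupling to contraction and muscle metabolism rose more often than they fell. Of 36 tested, 21 rose, 2 fell and 13 had no call, with a median log2FC of 1.19, or 0.64 with genes near the floor at their bound. Atp2a1, the calcium pump of fast muscle, rose from 0.66 and 0.32 CPM to 9.86, 9.50 and 13.2 CPM (log2FC 4.44, and 5.09 without growth medium replicate 1). The other calcium pump, Atp2a2, fell from 352 and 359 CPM to between 199 and 220 CPM (log2FC -0.74). The kelch proteins Klhl41 and Klhl40, which stabilise thin filament proteins, rose with them. Klhl41 went from 0.44 and 0.46 CPM to 12.5, 11.8 and 15.9 CPM (log2FC 4.88, SE 0.32). Klhl40 went from 6 and 1 counts to between 137 and 221 (log2FC 5.54, with 7.24 and 4.82 when growth medium replicate 1 or 2 was left out). Pdlim3, a Z-disc protein that binds alpha-actinin (chr8:45885461-45919548, GENCODE, GRCm38), was the muscle gene with the firmest change. It stood at 4.18 and 3.01 CPM in growth medium and at 238, 207 and 306 CPM on day 1 (log2FC 6.12, SE 0.19, adjusted p = 1.15e-16), and its day 3 mean of 320 CPM was called only 0.36 higher on the log2 scale (adjusted p = 0.0318).

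**Figure D2:**
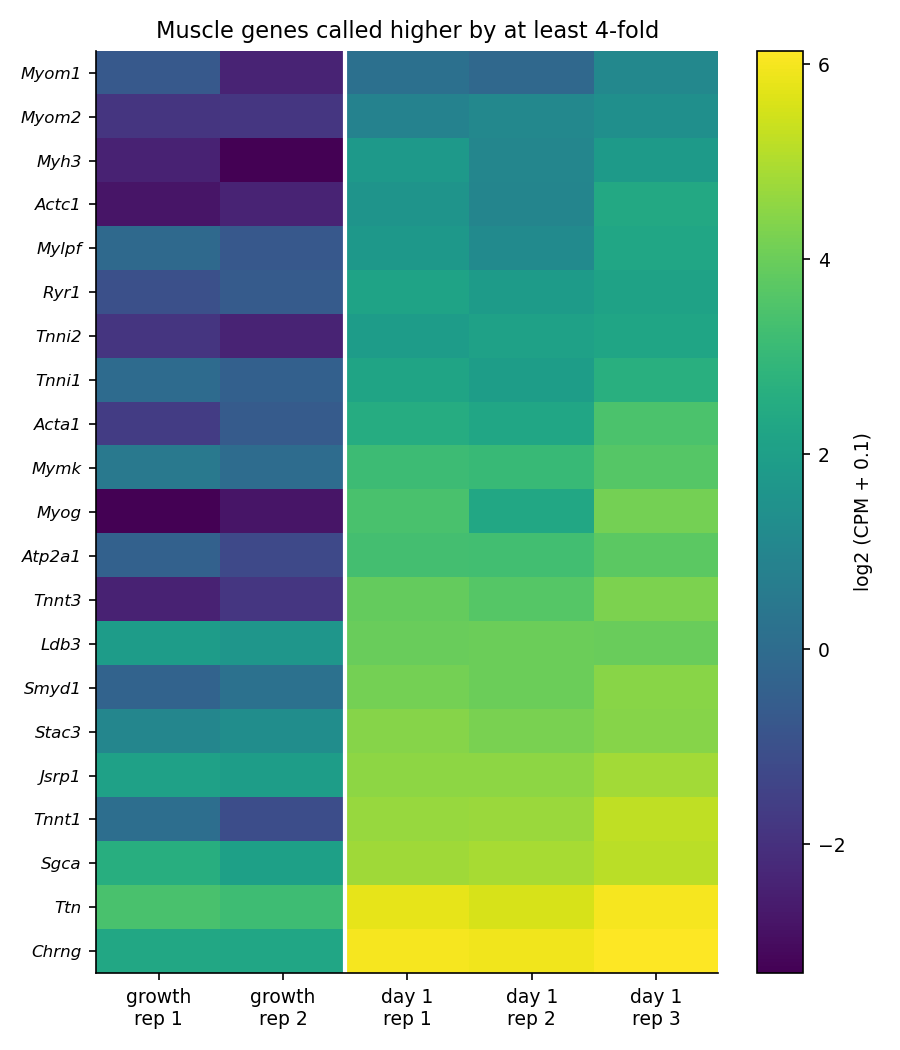
Level (log2 of CPM + 0.1, colour) in the 5 control libraries of 21 myogenic, sarcomere, excitation and fusion genes that rose at least 4-fold and reached a mean of 1 CPM on day 1. Day 1 replicate 3 holds the highest day 1 level for 18 of the 21 genes and replicate 2 the lowest for 16.

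The day 1 libraries differed in the levels of these genes. Of the 21 genes in the heat map of muscle genes, 18 had their highest day 1 level in replicate 3 and 16 their lowest in replicate 2. The ratio of replicate 3 to replicate 2 had a median of 1.39 and ran from 0.967 to 3.56, the latter for Myog. These genes are not independent of each other, and the spread was not tested. Dll1, Heyl and Sox8 were likewise lowest in replicate 2.

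Fusion genes were at an early stage. Of 23 fusion and adhesion genes tested, 13 rose, 3 fell and 7 had no call, with a median log2FC of 0.39. Mymk (myomaker), which is needed on both membranes that fuse, went from 1.32 and 0.93 CPM to 8.88, 8.27 and 12.5 CPM (log2FC 3.13, SE 0.40, adjusted p = 4.87e-07). Its partner Mymx had 0 and 1 counts, then 16, 9 and 42, a ratio of 42.1 with an interval of 7.30 to 1688 (fitted log2FC 5.09, and 4.25, 7.44 and 4.26 without growth medium replicate 1 or 2 or day 1 replicate 3). Without growth medium replicate 2 no count is left in that group, so 7.44 depends on the prior count. On day 3 the mean of Mymk was 163 CPM and that of Mymx 14.4 CPM. Kirrel3, an adhesion molecule of the nephrin family, rose 2.33-fold (log2FC 1.22).

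Id genes, the brake on Myod1, fell, and Id3 and Id1 were among the 15 largest losses. Id3 (chr4:136143497-136145755, GENCODE, GRCm38) was at 199.97 and 202 CPM in growth medium and at 6.92, 6.57 and 9.10 CPM on day 1. That is a 26.7-fold fall (log2FC -4.74, SE 0.15, adjusted p = 1.15e-16). Id1 fell 11.9-fold, from 77.9 and 78.9 CPM to 7.26, 6.32 and 6.24 CPM (log2FC -3.57). Id2 fell less, from 64.1 and 64.9 CPM to between 22.98 and 25.9 CPM (log2FC -1.40). The libraries of each group lay close together, and no library of one group came near the other. Notch genes, which act on neighbouring cells, moved the other way in part. The ligand Dll1 rose from 0.75 and 1.16 CPM to 23.6, 14.5 and 23.6 CPM (log2FC 4.43, SE 0.26). The target Heyl rose from 0.57 and 0.46 CPM to 7.77, 4.50 and 8.12 CPM (log2FC 3.70). Of the 20 Id and Notch genes tested, 9 rose, 8 fell and 3 had no call, with a median log2FC of 0.19.

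**Figure D3:**
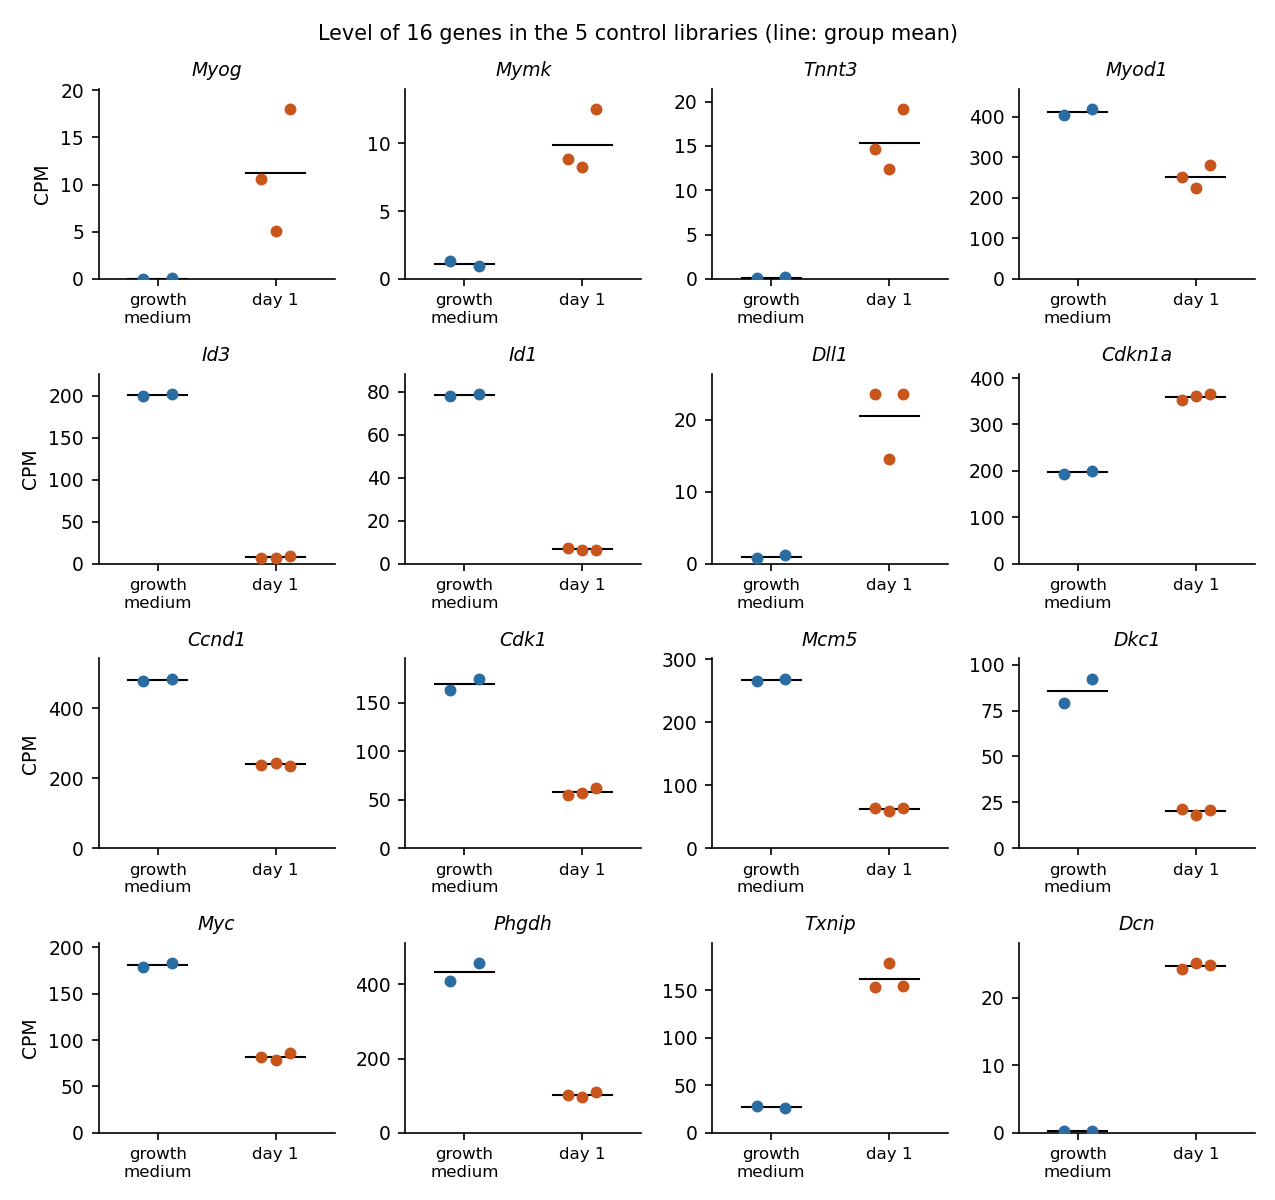
CPM of 16 genes in the 2 growth medium (blue) and 3 day 1 (orange) control libraries, with the group mean as a line and each axis starting at 0. The groups do not overlap in any of the panels, which held for 74.5% of all tested genes. It was also a condition for naming the largest gains and losses, Id3 and Id1 among them. Id3, Id1 and the cycle genes lie tightly while Myog is spread.

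The cell cycle genes fell nearly as a block. Of 46 DNA replication and G1/S genes tested, 45 fell, 0 rose and 1 had no call, with a median log2FC of -1.64. Their summed TPM was 3545 and 3487 in growth medium and 1252, 1222 and 1232 on day 1. All 46 genes of mitosis and cytokinesis fell, with a median log2FC of -1.48, and their summed TPM went from 4672 and 4764 to between 1852 and 1969. For both lists the growth medium sums lay well above all day 1 sums. The firmest losses among replication genes were of Orc1, the largest subunit of the origin recognition complex (log2FC -2.48, SE 0.14), and of Mcm10, a helicase cofactor (log2FC -2.40, SE 0.12). Orc1 stood at 17.3 and 20.0 CPM, then at 3.87, 2.71 and 3.46 CPM. Among mitotic genes the leading losses were of Mybl2, the MuvB partner (107 and 103 CPM, then 20.0, 18.9 and 19.6 CPM, log2FC -2.43), and of the spindle kinase Aurka (log2FC -1.99). Transcripts were reduced and not lost: Cdk1 kept 54.4 to 61.9 CPM on day 1, after 163 and 175 CPM in growth medium.

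The windows of Mcm5 and Cdk1 are shown because both lists are known for a motif near the start. These 2 genes were chosen after their values and windows were seen. In Mcm5, a helicase subunit (chr8:75109259-75109508, plus strand), the capitals mark an E2f site (TTTGGCGC read on the other strand) 149 bases before the start. In Cdk1, the mitotic kinase (chr10:69352913-69353162, minus strand), they mark 2 CHR sites (TTTGAA) and 3 CCAAT boxes (printed ATTGG where they lie on the other strand). The window of the mitotic gene Plk1, also looked at but not printed, held 1 CCAAT box and no TTTGAA.
Mcm5: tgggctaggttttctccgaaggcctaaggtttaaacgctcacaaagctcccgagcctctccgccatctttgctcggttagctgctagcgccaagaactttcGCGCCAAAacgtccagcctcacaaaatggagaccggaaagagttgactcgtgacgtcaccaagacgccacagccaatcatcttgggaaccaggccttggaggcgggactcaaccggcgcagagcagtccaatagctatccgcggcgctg
Cdk1: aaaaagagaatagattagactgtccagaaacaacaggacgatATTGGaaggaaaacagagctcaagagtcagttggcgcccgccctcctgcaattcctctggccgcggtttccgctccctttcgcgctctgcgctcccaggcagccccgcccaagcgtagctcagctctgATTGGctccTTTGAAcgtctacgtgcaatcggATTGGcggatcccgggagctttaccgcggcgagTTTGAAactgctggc
E2f sites (TTTCCCGC or TTTGGCGC, both strands) were in 1.63% of all windows, 3.05% of those of tested genes, 7.02% of those that fell at least 2-fold and 36.8% of the 38 replication windows. TTTGAA was in 18.1% of all windows, 11.6% of those of tested genes and 71.8% of the 39 mitosis windows. CCAAT was in 37.9% of all windows, 39.1% of those of tested genes and 74.4% of the mitosis windows. Cholesterol synthesis windows held CCAAT too, in 84.2% of 19, although that list did not fall.

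Cdk inhibitors and pocket proteins did not move as a block. Of 27 tested, 10 rose, 10 fell and 7 had no call, with a median log2FC of 0.02. Cdkn1a (p21) rose from 194 and 199.5 CPM to 352, 362 and 366 CPM (log2FC 0.87, adjusted p = 1.21e-05). Ccng2, an atypical cyclin of resting cells, rose 3.45-fold (log2FC 1.79), and Gadd45a rose 3.69-fold (log2FC 1.88). Rb1 rose from 27.6 and 25.4 CPM to between 36.0 and 40.4 CPM (log2FC 0.51, adjusted p = 0.00421, and 0.0574 without growth medium replicate 2). Ccnd1, the mitogen-driven cyclin D1, fell from 478 and 485 CPM to 238, 245 and 235 CPM (log2FC -1.01). Ccnd3, the cyclin D of differentiated muscle, had no call, at 207 CPM in both growth medium libraries and 214 to 238 CPM on day 1 (log2FC 0.13, adjusted p = 0.351). Without day 1 KO replicate 2 it was called (log2FC 0.18, adjusted p = 0.0132). Cdkn1c (p57) was low, at 1.39 to 2.39 CPM, and had no call. The MuvB subunits Lin9 and Lin54 fell 2.91-fold and 2.85-fold. Histone genes, of which 17 were tested, gave 3 higher, 6 lower and 8 without a call. Most histone transcripts of the cycle lack a poly(A) tail, so this selection sees few of them. The variants H2afz (log2FC -1.45) and H2afx (log2FC -1.19) fell, and the linker histone Hist1h1c rose (log2FC 1.25).

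Transcripts of genes that build ribosomes fell as well. All 42 ribosome biogenesis genes tested fell, with a median log2FC of -1.28, and their summed TPM went from 4000 and 4260 to 2062, 1951 and 2036. Dkc1, the pseudouridine synthase of small nucleolar ribonucleoproteins, fell from 79.3 and 92.5 CPM to 21.2, 18.3 and 20.5 CPM (log2FC -2.10, SE 0.12). Its complex partner Nhp2 fell too (log2FC -1.97). Myc, which drives this programme in growing cells, fell from 179 and 183 CPM to 81.8, 78.6 and 86.1 CPM (log2FC -1.14, SE 0.12). The ribosomal proteins themselves hardly moved. Of 53 tested, 2 rose, 12 fell and 39 had no call, with a median log2FC of -0.13, which turned to 0.010 on the TPM scale. Their summed TPM was 108104 and 110797 in growth medium and 108678 to 110768 on day 1, so the groups overlapped. The E-box CACGTG, the form tied to Myc, was in 24.3% of 37 ribosome biogenesis windows, 10.1% of those of tested genes and 7.24% of all. Foxo and autophagy windows, whose genes rose, held it in 33.3% of 24.

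Genes that make amino acids and fold secreted proteins fell more often than they rose. Of 36 tested, 21 fell, 6 rose and 9 had no call, with a median log2FC of -0.40. Phgdh, the entry enzyme of serine synthesis, fell from 408 and 457 CPM to 101, 97.6 and 109.5 CPM (log2FC -2.08, SE 0.13). Asns, asparagine synthetase, fell 4.02-fold (log2FC -2.01). Outside the list, cytosolic Shmt1, which passes the serine carbon to folate, fell 6.06-fold (log2FC -2.60), one of the 15 largest losses. Genes of this list that rose included Vldlr (log2FC 1.20) and the stress factor Nupr1 (log2FC 0.61, with the call lost without growth medium replicate 1). Trp53 target genes split, with 10 higher, 13 lower and 4 without a call of 27, from Bbc3 and Btg2 (log2FC 1.48 each) to Gtse1 (-1.75) and Tigar (-1.72).

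Foxo targets and autophagy genes, which insulin and growth factors normally restrain, rose. Of 32 tested, 26 rose, 0 fell and 6 had no call, with a median log2FC of 0.68. Pik3ip1, an inhibitor of PI3 kinase, rose from 4.27 and 4.35 CPM to 23.7, 29.1 and 27.6 CPM (log2FC 2.64, SE 0.25). Txnip, which blocks thioredoxin and glucose uptake, rose from 28.0 and 26.0 CPM to 154, 178 and 154 CPM (log2FC 2.59, SE 0.17). Of 18 Igf axis genes, 10 rose, 0 fell and 8 had no call, with a median log2FC of 0.43. Igf1 had 1 and 0 counts, then 24, 34 and 37, a ratio of 59.7 with an interval of 10.5 to 2383 (fitted log2FC 5.59, and 7.96 and 4.77 without growth medium replicate 1 or 2). Without replicate 1 no growth medium count is left, so 7.96 depends on the prior count. Stc1, a secreted inhibitor of the protease Pappa, rose 11.4-fold (log2FC 3.51) and fell again by day 3 (log2FC -1.47 between day 3 and day 1, adjusted p = 1.11e-05). Igf2 had at most 4 counts in each library and no call.

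Glycolysis and hypoxia genes rose as well, 24 of 33 tested, with 0 lower and 9 without a call (median log2FC 0.70). Their summed TPM went from 30319 and 28018 to between 36860 and 38960. Adm (adrenomedullin) rose 7.68-fold, from 2.11 and 2.04 CPM to 15.5, 17.9 and 14.5 CPM, and the aldolase Aldoc rose 6.17-fold (log2FC 2.62). Respiratory chain genes leaned the other way, with 19 lower, 6 higher and 23 without a call of 48 (median log2FC -0.16). Over all tested genes 27.6% were lower and 27.1% higher. Cycs, cytochrome c, fell from 170.5 and 210.3 CPM to 68.3, 64.3 and 76.7 CPM (log2FC -1.45), while the coactivator Ppargc1a rose from 0.84 and 1.02 CPM to between 5.98 and 6.46 CPM (log2FC 2.74). Cholesterol genes rose modestly, 14 of 28, with 2 lower and 12 without a call (median log2FC 0.31). The members that led were not synthesis enzymes: Mylip, a ubiquitin ligase, and the exporter Abcg1 rose 2.94-fold each. Among 29 fatty acid and lipid storage genes, 9 rose, 5 fell and 15 had no call, against 27.1% higher and 27.6% lower over all tested genes. The lipase Lipe (log2FC 1.65) and Lpin1 (1.37) rose, and Pdk4 (-1.29) and Pparg (-1.03) fell. Glutathione and Nrf2 genes fell in 16 of 32 cases and rose in 9 (median log2FC -0.28). Gsta1 fell from 14.96 and 16.1 CPM to between 0.127 and 0.297 CPM (log2FC -6.15), and its near copy Gsta2 fell with it. Reads of these 2 genes can be shared. Selenop, the selenium carrier, rose 7.83-fold (log2FC 2.97).

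**Figure D4:**
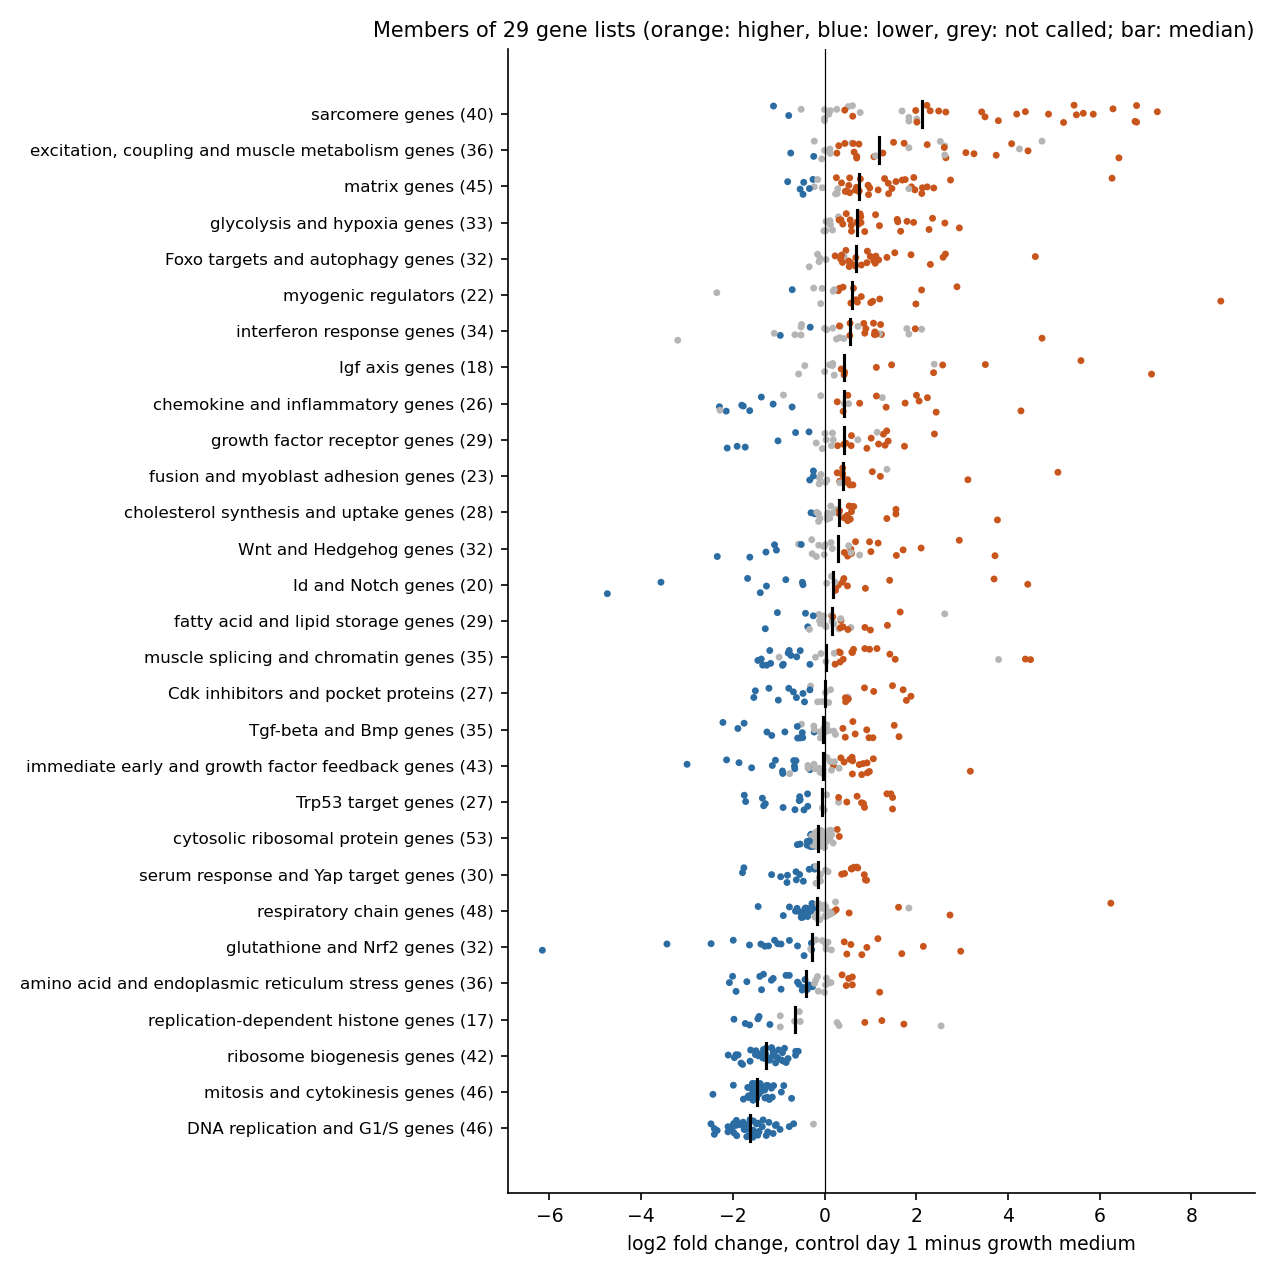
Log2 fold change between control day 1 and growth medium for the tested members of 29 gene lists (1 point a gene, number tested in brackets, black bar the median), sorted by median. All members of the mitosis and ribosome biogenesis lists lie below 0 and are called, whereas sarcomere genes spread up to above 7, where values rest on few growth medium counts.

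Of 43 immediate early and feedback genes, which answer mitogens directly, 15 rose, 13 fell and 15 had no call, with a median log2FC of -0.04. These shares are near those of all tested genes (27.1% higher, 27.6% lower). The growth factor Areg fell from 14.6 and 17.2 CPM to 1.53, 2.08 and 2.35 CPM, or 7.99-fold, and the ERK phosphatases Dusp5 (log2FC -2.14) and, outside the list, Dusp9 (log2FC -2.65) fell. Spry1, a feedback inhibitor kept in resting satellite cells, rose from 0.35 and 0.19 CPM to 3.06, 1.74 and 2.69 CPM (log2FC 3.18), and Etv1 rose 2.09-fold. Of 30 serum response and Yap targets, 10 rose, 13 fell and 7 had no call. Ctgf fell from 54.1 and 51.5 CPM to 15.2, 17.3 and 14.2 CPM (log2FC -1.76), and Cnn1, a smooth muscle calponin, fell to 1.02 to 1.40 CPM (log2FC -1.79). Both were higher again on day 3 (log2FC 1.64 and 2.80 between day 3 and day 1). Myl9 rose 1.89-fold. Of the smooth muscle markers, of which this list shares Acta2, Tagln and Cnn1, 5 of 7 tested rose and 2 fell, and their summed TPM went from 448 and 468 to between 723 and 786. Their part in these results was not tested.

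Matrix genes rose as a group, and the their summed level in the transcript pool rose with them. Of 45 tested, 32 rose, 6 fell and 7 had no call, with a median log2FC of 0.76. Their summed TPM was 6650 and 6072 in growth medium and 13255, 13061 and 11995 on day 1. Dcn (decorin) was the leading matrix gene, at 0.31 and 0.32 CPM, then 24.3, 25.2 and 24.9 CPM (log2FC 6.27, SE 0.33, adjusted p = 5.04e-13). Its day 1 libraries differed little, and its day 3 mean of 25.6 CPM had no call against day 1. The laminin chain Lama4 rose 6.72-fold (log2FC 2.75). Fn1 (fibronectin) rose from 4391 and 4047 CPM to 11675, 11455 and 10196 CPM (log2FC 1.40), and the inhibitor Timp1 fell (log2FC -0.80). Tenocyte markers rose in 3 of 3 tested cases, with a summed TPM of 105 and 104, then 175 to 178, while Tnmd, Thbs4 and Kera stayed at 0 counts. The summed levels of osteoblast and chondrocyte markers, given with the depth, were also higher in every day 1 library than in either growth medium library. Their members did not rise as a group. Of 4 osteoblast markers tested, 1 rose, 1 fell and 2 had no call, and of 3 chondrocyte markers 0 rose, 1 fell and 2 had no call. The part of these markers in the matrix result was not tested.

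Among secreted signals and receptors, 9 of 35 Tgf-beta and Bmp genes rose, 12 fell and 14 had no call, again near the shares of all tested genes (27.1% and 27.6%). Bmp4 (log2FC 1.52) and the coreceptor Tgfbr3 (1.62) rose, and the activin subunit Inhba (-1.89) and the activin antagonist Fst (-2.22) fell. Among 32 Wnt and Hedgehog genes, 13 rose, 6 fell and 13 had no call. Wnt7b, a ligand with known effects on muscle growth, rose from 1.41 and 1.48 CPM to 20.3, 18.1 and 18.8 CPM (log2FC 3.72, SE 0.22). The 2 largest losses in the list were of Hhip (log2FC -2.34) and Gli1 (-1.63), both known to respond to Hedgehog. Growth factor receptors rose in 14 of 29 cases and fell in 6. Fgfr4, an Fgf receptor of differentiating myoblasts, rose 5.27-fold to between 58.5 and 72.4 CPM, and the nerve growth factor receptor Ngfr fell 4.36-fold. Of 26 chemokine and inflammatory genes, 12 rose, 8 fell and 6 had no call. Ccl2 fell from 50.8 and 58.8 CPM to 11.98, 10.7 and 10.8 CPM (log2FC -2.29), and Ccl7 fell with it (-2.14). Saa3 rose from 0.35 and 0.28 CPM to between 5.04 and 7.26 CPM (log2FC 4.28) and had fallen by day 3 (log2FC -3.04 against day 1). Interferon response genes rose in 14 of 34 cases and fell in 2, with a median log2FC of 0.55, or 0.34 with genes near the floor at their bound. Irf7 rose from 0.62 and 0.69 CPM to between 2.34 and 2.88 CPM. Ifit1 fell (log2FC -0.97), but its call was lost when any of several single libraries was left out.

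Muscle splicing and chromatin genes split evenly, with 15 higher, 14 lower and 6 without a call of 35. Rbm24, an RNA-binding protein that promotes muscle splicing, rose from 0.88 and 0.97 CPM to 18.6, 14.5 and 29.7 CPM (log2FC 4.49). The muscle methyltransferase Smyd1 rose from 0.70 and 1.06 CPM to 17.9, 15.9 and 21.6 CPM (log2FC 4.38, SE 0.21). The H3K9 methyltransferase Suv39h1 (log2FC -1.45) and the chromatin protein Hmga2 (-1.38) fell.

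Outside the lists, the 15 largest gains held secreted and metabolic genes beside the muscle genes already described. Cilp, a matrix protein of cartilage, went from 0.62 and 0.19 CPM to 38.6, 33.1 and 30.8 CPM (log2FC 6.38, with 7.53 and 5.78 without growth medium replicate 1 or 2). It was still rising, at a day 3 mean of 312 CPM. Hsd11b1, which regenerates active glucocorticoid, had 1 count in each growth medium library and 112, 96 and 148 on day 1, a ratio of 112 with an interval of 30.7 to 927. Pi16, a secreted peptidase inhibitor, had 2 counts in each and then 155, 150 and 139, a ratio of 69.8 with an interval of 27.1 to 257. Unlike Cilp it then dropped, to a day 3 mean of 2.93 CPM (log2FC -1.10, adjusted p = 0.00833). Itga10, Coq8a, Stk32b, Prelp and Sox8 completed the list, with log2FC from 4.69 (Sox8) to 5.75 (Itga10). The collagen receptor chain Itga10 moved to 5.09 and 7.08 without growth medium replicate 1 or 2.

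The largest losses were of the proliferins, secreted members of the prolactin family that dividing cells make. Prl2c2 was at 71.4 and 73.9 CPM, then at 0.467, 1.02 and 0.555 CPM (log2FC -6.73, SE 0.36). Prl2c3 was at 40.1 and 41.9 CPM, then at 0.212, 0.297 and 0.555 CPM (log2FC -6.83). The copies are near identical, so how reads were split between them is uncertain. The integrin ligand Npnt (nephronectin) fell from 120.4 and 117 CPM to 15.6, 15.1 and 11.7 CPM (log2FC -3.07, SE 0.19). Prg4 (lubricin) fell 19.6-fold, Serpinb2 10.3-fold, Dlk2 9.25-fold, Tigit 6.16-fold and Tnfrsf21 6.12-fold. Lce1g, of a family with close copies, fell 24.4-fold from 5.06 and 6.99 CPM.

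In share of the transcript pool, the largest shift was of AK218261, a gene with no position in the annotation used, from 11822 and 12977 TPM to 6381, 6027 and 6452 TPM. Its call (log2FC -1.18, adjusted p = 0.0194) was lost without growth medium replicate 1 or 2 (0.0504 and 0.105) or day 1 replicate 1 or 2 (0.0598 and 0.0589). Ftl1, the ferritin light chain, fell from 6519 and 6885 TPM to 2689, 2624 and 2626 TPM. Ptma (prothymosin alpha) fell from 4121 ± 102 to 1941 ± 82.6 TPM, and Rps2 from 7655 ± 46.4 to 5584 ± 124 TPM (SD, n = 2 and 3). Lgals1 fell from 11934 ± 417 to 9761 ± 444 TPM, with the call lost without growth medium replicate 2 (adjusted p = 0.0551). Tpt1 gained most, from 3532 ± 36.2 to 5396 ± 98.4 TPM. It was followed by Aldoa (1962 ± 127 to 3614 ± 79.6), S100a4 (2710 ± 106 to 4286 ± 132) and Fn1 (801 ± 77.0 to 2324 ± 211). Ftl1 shares exon sequence with a pseudogene annotation, and Aldoa overlaps Fam57b, so part of their reads could be split. Annotated exons of another gene also overlap those of other named genes, among them Atp2a1, Klhl40, Itga10, Coq8a, Sox8, Pitx3, Dll1, Cdkn1a, Ccnd1, Ccnd3, Rb1, Dkc1, Nhp2, Selenop, Fn1, Wnt7b, Irf7, Pi16, Prg4, Serpinb2, Dlk2 and Shmt1, and reads from such pairs cannot be told apart there without strand.

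The libraries labelled KO allowed the same day to be tested for a difference between genotypes. In them 7423 of 14187 genes (52.3%) changed on the first day, 3852 higher (27.2%) and 3571 lower (25.2%). The 5905 genes that changed in the same direction in both genotypes were 76.1% of the control calls and 79.6% of the calls in the libraries labelled KO, and 22 changed in opposite directions. The 2 comparisons share no library. A difference in the first-day change itself (interaction term, edgeR quasi-likelihood test, adjusted p under 0.05) was called for 560 genes (3.95%). The change was more positive in the libraries labelled KO for 374 genes (2.64%) and more negative for 186 (1.31%). This split varied with the processing: it was 368 and 179 genes with library size only and 274 and 203 under RLE scaling. DESeq2, which differs in its test as well as its scaling, gave 436 and 397 of 833. Restricting the edgeR test to genes averaging 50 counts or more gave 289 and 268. Of the 560 genes, 168 had risen and 329 had fallen in control cells. Without day 1 replicate 2 of the libraries labelled KO, which stands apart, 577 genes were called. The growth medium control libraries weighed more, since the count was 148 without replicate 2 and 244 without replicate 1.

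Cycle genes held many of these differences. In 37 of 46 mitosis genes and 29 of 46 replication genes the interaction was called, always because the fall in control cells was the larger. The median log2FC was -1.48 in control cells and -0.74 in libraries labelled KO for mitosis, and -1.64 and -0.98 for replication. Without day 1 KO replicate 2 the calls numbered 41 and 35, and without growth medium control replicate 2 they numbered 14 and 17. Aurka fell by 1.99 on the log2 scale in control cells, and its log2FC in libraries labelled KO was -1.28 (interaction 0.71, adjusted p = 0.0115, and 0.0907 without growth medium control replicate 2). For 4 of 40 sarcomere genes the difference was called, with 5 without day 1 KO replicate 2 and 1 without growth medium control replicate 2. The change was more positive in the libraries labelled KO for 1 of the 4 and more negative for 3, whereas limma on log2(TPM + 1) called 9 (7 more positive, 2 more negative) and on log2(TPM + 0.1) called 8 (5 and 3). DESeq2 called 6 (2 and 4), and the replicate block 2 (1 each). The methyltransferase Smyd1 rose by 4.38 in control cells and 1.97 in libraries labelled KO (interaction -2.41, adjusted p = 1.84e-05), from growth medium means of 0.88 and 9.30 CPM. Dcn rose by 6.27 and 3.72 (interaction -2.55, adjusted p = 0.00602, and 0.0561 without growth medium control replicate 2), and Pdlim3 by 6.12 and 4.84 (-1.27, adjusted p = 0.00186). Ccl2 fell further in control cells (log2FC -2.29 against -0.59, interaction 1.71, adjusted p = 9.83e-05). Myf5 rose less in them (0.57 against 1.11, adjusted p = 0.0075), a call lost without growth medium control replicate 1 or 2 (0.0581 and 0.0513). Id2 also fell less in control cells (-1.40 against -2.07, adjusted p = 0.00226), whereas the interaction had no call for Id1 and Id3 (0.07 and 0.17, adjusted p = 0.913 and 0.692). For Myog it had no call either (-0.77, adjusted p = 0.914), with a wide standard error of the change.

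**Figure D5:**
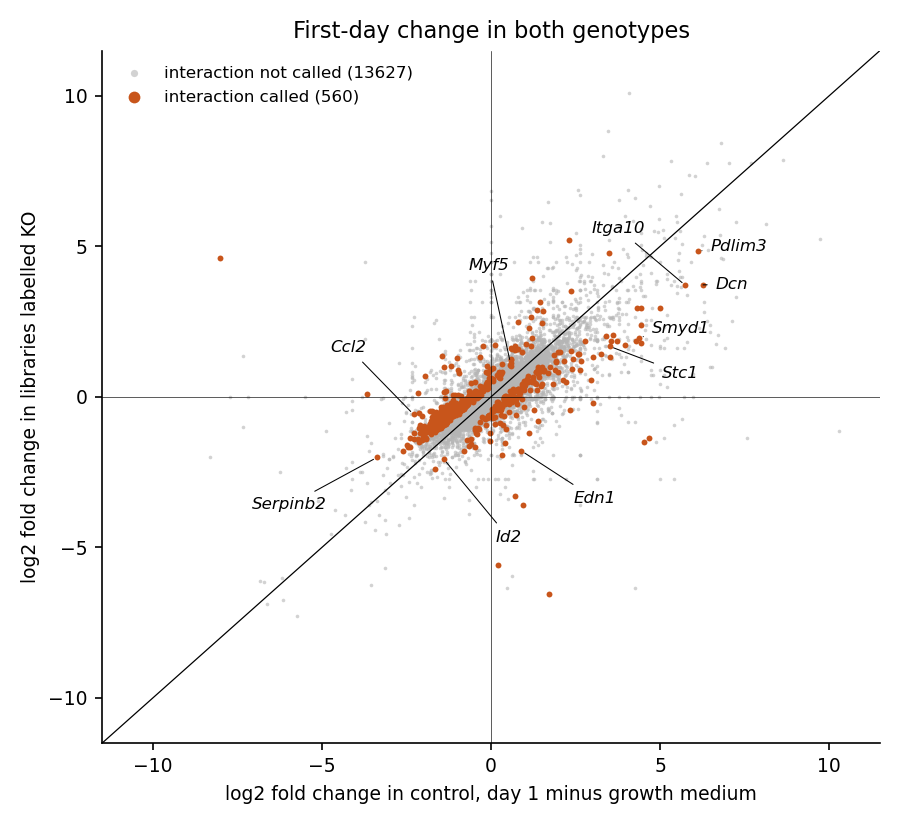
First-day log2 fold change in libraries labelled KO against that in control libraries for 14187 genes, with equal change on the diagonal and the 560 genes with a called interaction in orange. Most orange genes with a fall in control cells lie above the diagonal, and Dcn, Smyd1, Stc1 and Pdlim3 lie below it.

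Values on day 3 place the first day in the longer course. Between day 3 and day 1, 2797 of 14187 genes were called (19.7%), 1566 higher (11%) and 1231 lower (8.68%). This comparison shares the day 1 libraries with the first-day one. Of 40 sarcomere genes 33 were higher and 1 lower, with a median log2FC of 3.92. In the mitosis list 5 were higher and 5 lower (median 0.09), and in the ribosome biogenesis list 1 was higher and 0 lower (0.04). In the replication list 26 were higher and 0 lower, by a median of 0.31. Matrix genes went on, with 30 of 45 higher and 3 lower (0.64), and the amino acid and stress list turned, with 21 of 36 higher and 1 lower (0.34). Id3 and Id1 fell further, by 0.72 and 0.67 on the log2 scale, and Myog rose further (log2FC 3.91, adjusted p = 6.24e-10).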

How the data were processed

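Poly(A) RNA of C2C12 cells was sequenced. The authors deposited estimated counts per gene symbol as whole numbers, and TPM per gene made by the authors from the same libraries. Bowtie2, RSEM and mm10 are named in the submitters' processing notes, with no versions. Neither an annotation nor a strand setting is given in the sources used here, so overlapping genes cannot be separated.

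Estimated counts were rounded, which kept them as deposited. From 32793 rows, edgeR 4.0.16's filterByExpr (minimum count 10, minimum total 15) kept 14187 genes. One group-means model with TMM scaling was fitted to all 23 libraries in R 4.3.3, so that the 2 growth medium control libraries share the spread of the others. P values come from the quasi-likelihood F-test, adjusted by Benjamini-Hochberg over all tested genes with a threshold of 0.05. The procedure was tested on simulated data. Replicates differed beyond sampling noise, with a chi-square per degree of freedom of 4.88 to 7.36 in the control groups of the first day and 4.08 to 62.1 in those labelled KO.

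The members are all libraries with the given labels, and this comparison, the gene lists (29) and the rules were chosen with earlier results of these data known. Named genes were 147: the 15 largest gains and 15 largest losses (a group mean of at least 5 CPM, groups not overlapping, no model names), the 5 largest gains and losses of TPM, the 2 largest changes each way in each list (at least 1 CPM), and 18 regulators. Values of some of them are not reported here. Other named genes (Cdk1, Mcm5, Plk1) were chosen after their values were seen. Folds against libraries at or under 3 counts are ratios of summed CPM with exact 95% intervals, which cover counting error only. Gene positions and overlaps are from GENCODE M21 (145 of 147 matched) and sequences from RefSeq. The CACGTG search and the marking of CANNTG were added after the data were seen.

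Alternatives were RLE scaling, library size alone, no filter or a filter on the mean count (50 or more), DESeq2 1.42.0, then limma 3.58.1 on log2(TPM + 1) and log2(TPM + 0.1), fits of only the groups compared or only control libraries, the replicate number as a block, an adjusted p under 0.01, a 2-fold minimum, and omission of single libraries.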

Additional observations from a re-analysis of the deposited data

Results flagged for a closer look

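The first-day change differed between control cells and the libraries labelled KO for 560 genes by the interaction term. Among the named genes this held for 23. In the sentences below each value is the log2 change in libraries labelled KO minus that in control cells.

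Cycle and chromatin genes fell further in control cells: Orc1 (0.86), Lin9 (0.79), Mcm10 (0.74), Aurka (0.71), Lin54 (0.67), H2afz (0.62) and Suv39h1 (0.48). The same held for Shmt1 (0.81), Cycs (0.71), Serpinb2 (1.36) and the chemokines Ccl2 (1.71) and Ccl7 (1.59). Ifit1 (1.87) and Sc5d (0.61) were lower on day 1 in control cells and higher in the libraries labelled KO. Myf5 (0.53) rose less in control cells.

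Genes that rose further in control cells were Smyd1 (-2.41), Pdlim3 (-1.27), Dcn (-2.55), Itga10 (-2.04), Stk32b (-2.05) and Stc1 (-1.83). Edn1 (-2.69) rose in control cells, where its groups overlapped, and fell in the libraries labelled KO. Id2 (-0.67) fell less in control cells. Of the 23 calls, 20 held without day 1 KO replicate 2, and 8 held under the omission of every single library tried (Ccl2, Ccl7, Edn1, H2afz, Id2, Pdlim3, Serpinb2 and Smyd1). Suv39h1 and Itga10 held least often and were also lost under the replicate block (adjusted p = 0.0536 and 0.0592). Itga10 was lost without day 1 KO replicate 2 as well (0.0586).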

How the results depend on the processing

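Of 2638 values recomputed for the 147 named genes, 2530 kept their direction and call, 107 lost the call, 1 gained it and 0 reversed. Most named genes were picked for large called changes in this same contrast, so these counts do not describe the 7760 calls. For 114 genes every alternative gave the same call. Genes that lost it when some single library was left out included Sc5d, Eno3, Rac1, Ifit1, Edn1, Rps27, Rpl10 and AK218261. A minimum of 2-fold reduced the 7760 calls to 2483 (1440 higher, 1043 lower). With limma on log2(TPM + 1), which shrinks changes of low genes, 916 genes rose and 580 fell at least 2-fold. Leaving out 1 library gave 6025 to 8523 calls, with 2821 to 4579 higher and 3077 to 3944 lower, and 1164 to 1563 higher and 915 to 1065 lower at least 2-fold. On log2(TPM + 0.1) the median of all genes shifted to 0.136, against 0.015, and changes there are relative to that. The median of ribosomal proteins turned to 0.010 under both TPM fits, and that of histone genes to 0.363 with a mean count of at least 50, which leaves 5 of the 17 genes. The cause of the former was not tested.

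For the genotype difference in the first-day change, the 560 interaction calls became 197 at an adjusted p under 0.01, 117 with a 2-fold minimum, 352 on log2(TPM + 0.1), 239 with only the groups compared, and 148 to 919 when 1 library was left out. At an unadjusted p under 0.05 there were 2559. For control day 3 against control day 1, the 2797 calls became 1623, 661 and 4642 at an adjusted p under 0.01, with a 2-fold minimum and with only the groups compared, and 2036 to 3888 with 1 library left out.

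Labels number the replicates, and the replicate block gave 7613 calls for the first day, 441 for the interaction and 2642 for day 3 against day 1. Same-numbered control libraries of growth medium and day 1 did not deviate together (r = 0.036 and -0.064 for the 2 shared numbers). With 2 growth medium libraries these values are not independent of each other. They cannot say whether equal numbers share a culture. With 2 growth medium libraries, precision rests on the spread of the other groups, and low genes rest on few counts.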
